A study of Mus musculus with 32 samples.

Results

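The genes described here are the 10 core genes of antigen presentation by MHC class II that were followed in mouse B cells with and without the transcription elongation factor ELOF1. They are Cd74, H2-Aa, H2-Ab1, H2-Eb1, H2-DMa, H2-DMb1, H2-DMb2, H2-Oa, H2-Ob and Ciita, taken by gene symbol from 43345 counted mouse genes. All 10 passed the filter on low counts in both cell systems. MHC class II molecules are pairs of an alpha and a beta chain that carry peptides from endosomes to the surface of B cells, dendritic cells and macrophages, where CD4 T cells read them. The invariant chain Cd74 fills the groove of new molecules and steers them to endosomes. The peptide exchanger H2-M, built from H2-DMa with a beta chain from H2-DMb1 or H2-DMb2, then removes the invariant chain remnant, and H2-O, built from H2-Oa and H2-Ob, restrains H2-M and is known mainly from B cells. Ciita is the co-activator that the shared promoters of these genes recruit, and its own level is known to set theirs in many cell types.

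RNA was sequenced from 2 systems, each with 16 libraries. CH12F3 is a mouse B cell line that switches antibody class in culture. Every CH12F3 culture carried the Elof1 knockout, with either an empty vector or ELOF1 put back, and was stimulated with an antibody to CD40, IL4 and TGF-β. The CH12F3 groups were vector and ELOF1 at day 1.5 (n = 4 each), at day 3 (n = 2 each) and at day 7 (n = 2 each). The spleen groups were primary B cells with a conditional Elof1 knockout (cKO) and from wild-type mice (WT), both treated with IL4 and LPS, at day 2.5 (n = 5 each) and at day 3.5 (n = 3 each). The labels name no Cre driver, clone number, mouse strain or animal age. The labels do not say that replicates were separate cultures or animals, so p-values measure only the spread between these samples. Fly S2 cell RNA was added per number of cells as a spike-in.

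Mouse counts per library ran from 7112130 to 16359477. Elof1 itself was read at 0.895 to 5.06 CPM (read counts scaled by library size) in vector libraries, against 131 to 642 CPM in ELOF1 libraries. It was at 1.34 to 8.19 CPM in cKO spleen libraries, against 11.8 to 59.1 CPM in WT libraries, so that every library fell on the side its label gives. The library numbers in the labels fall into 2 series, and the 8 libraries of the first series are replicates 1 and 2 of CH12F3 at day 1.5 and replicates 4 and 5 of spleen at day 2.5. The B cell receptor chain Cd79a was at 151 to 238 CPM in CH12F3 and at 244 to 580 CPM in spleen, while the mature B cell marker Cr2 stayed at or below 0.198 CPM in CH12F3. Of markers of other antigen-presenting cells, Clec10a was at 0 in all 32 libraries and Clec9a at 0 in all 16 spleen libraries, but others were read. The dendritic cell markers Cst3 and Zbtb46 were at 40.0 to 70.7 and 24.9 to 45.3 CPM in CH12F3, against 17.4 to 39.4 and 5.68 to 28.9 CPM in spleen, and Flt3 reached 20.1 CPM in CH12F3 and 57.5 CPM in spleen. The macrophage markers Csf1r and Adgre1 were at 20.9 to 56.1 and 5.07 to 177 CPM in CH12F3, against at most 0.621 and 12.2 CPM in spleen. In these bulk samples fewer cells of a type and less RNA per cell cannot be told apart.

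8 of the 10 genes lie in 1 stretch of chromosome 17, from 34092340 to 34316199 in mm10, and Ciita lies at chr16:10488178-10527564 on the plus strand. Exons of H2-Oa share 200 bases with BC051537 and exons of Ciita share 111 bases with Dexi, each on the opposite strand, and the strand setting of the counting is not named by any source used. The class II genes share promoter elements, of which the Y box binds the factor NF-Y and the X box binds the RFX complex, and Ciita docks on the proteins bound there. The promoters of 4 members are shown. They are those with the Y box core whose printed window holds no counted exon bases of that gene. The windows of H2-DMb1 and H2-Oa carry it too but hold such bases. H2-Ob and H2-DMb1 passed the test between cKO and WT spleen cells, while H2-Aa, H2-Eb1, H2-DMb2 and H2-Oa did not. Each sequence gives the 115 bases that end 11 bases before the start, 5′ to 3′ on the gene's strand, from RefSeq on GRCm38.p6. Capitals mark the Y box core TGATTGG and, where present, AACNNATG, the part of the X box searched for.
H2-Aa: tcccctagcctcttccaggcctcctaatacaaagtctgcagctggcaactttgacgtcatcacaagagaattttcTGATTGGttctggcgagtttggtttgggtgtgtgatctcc
H2-Eb1: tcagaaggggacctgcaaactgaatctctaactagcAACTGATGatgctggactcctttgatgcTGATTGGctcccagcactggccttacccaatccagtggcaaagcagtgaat
H2-DMb2: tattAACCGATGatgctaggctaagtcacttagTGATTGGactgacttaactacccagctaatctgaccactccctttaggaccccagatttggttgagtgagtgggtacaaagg
H2-Ob: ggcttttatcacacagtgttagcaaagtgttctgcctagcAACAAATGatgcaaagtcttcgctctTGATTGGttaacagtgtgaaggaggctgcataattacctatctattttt

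In mm10 coordinates these windows are chr17:34287834-34287948 on the minus strand for H2-Aa and, on the plus strand, chr17:34305742-34305856 for H2-Eb1, chr17:34145124-34145238 for H2-DMb2 and chr17:34238780-34238894 for H2-Ob. The H2-DMb2 window lies inside the counted gene, chr17:34143307-34151553, so the RefSeq start used for it is downstream of the counted one. Both motifs were chosen after the sequences had been read and were searched on both strands of the 250 bases before the start. 7 of the 10 members had a RefSeq window. The Y box core was found in 6 of these 7 genes, and in 7.23% of 32851 promoter windows of all genes. It lay 50 bases before the start in H2-Aa, 61 in H2-Eb1, 63 in H2-DMb1, 92 in H2-DMb2, 45 in H2-Oa and 59 in H2-Ob. AACNNATG was found in 4 of the 7 genes, against 7.71% of all windows, and both motifs together in the same 4, against 0.664%. In these 4 genes the X box letters stood upstream of the Y box on the same strand, at 89 bases before the start in H2-Eb1, 92 in H2-DMb1, 121 in H2-DMb2 and 85 in H2-Ob. H2-DMa held neither set of letters, which says only that those letters are not in its windows.

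The invariant chain was by far the most abundant of these transcripts in both systems. Its gene Cd74 lies outside the MHC, at chr18:60803848-60812646 on the plus strand, and shares 12 exonic bases with Mir5107. Cd74 ranked 7th of 14201 tested genes by mean CPM in CH12F3 and 5th of 13367 in spleen cells. Compared per length, as CPM per kilobase of exon (medians over the 16 libraries of a system), Cd74 stood at 3304 in CH12F3, followed by H2-Eb1 at 731, H2-Aa at 615 and H2-Ab1 at 447. The peptide exchanger came next, with H2-DMb2 at 178, H2-DMa at 104 and H2-DMb1 at 74.8, and Ciita lay among them at 109. H2-Oa at 37.7 and H2-Ob at 18.8 were lowest. In spleen cells the same measure gave Cd74 4868, H2-Eb1 1679, H2-Ab1 1361, H2-Aa 1036, H2-DMb2 511, H2-DMa 279, H2-DMb1 112, Ciita 109, H2-Ob 67.9 and H2-Oa 39.4. Neighbours kept this order in every library, with 5 exceptions. In CH12F3 H2-Eb1 stood above H2-Aa in 15 of 16 libraries and Ciita above H2-DMa in 6 of 16. In spleen cells H2-Eb1 stood above H2-Ab1 in 15 of 16, H2-DMb1 above Ciita in 8 of 16, and Ciita above H2-Ob in 15 of 16. So the places of Ciita against H2-DMa in the line and of Ciita against H2-DMb1 in spleen cells were not separated by their spread.

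**Figure D1:**
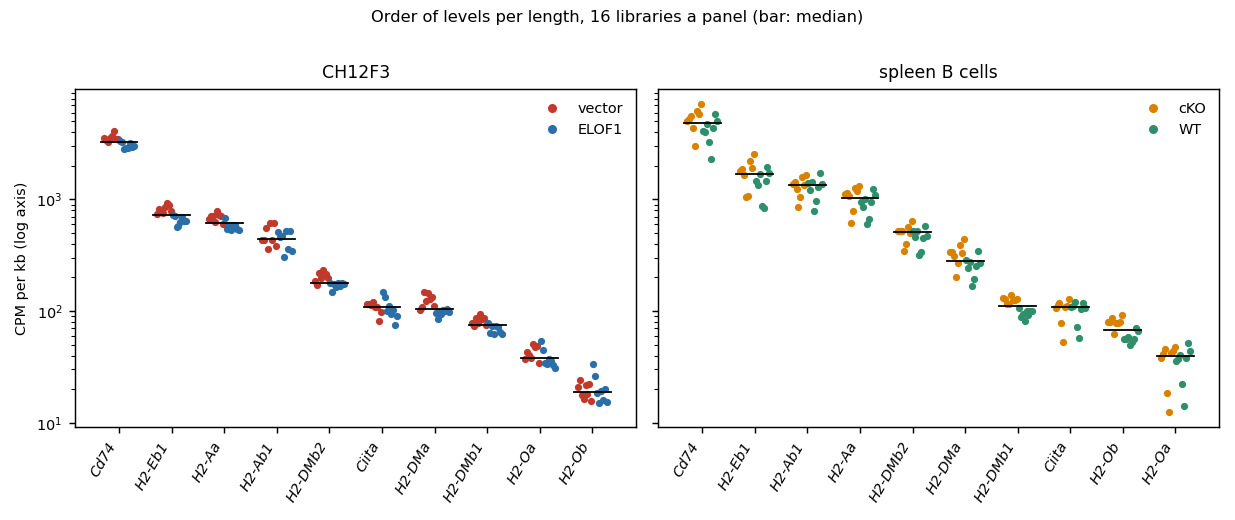
CPM per kilobase of exon (log axis) of the 10 genes in the 16 CH12F3 libraries (left; vector, then ELOF1) and the 16 spleen libraries (right; cKO, then WT), each point a library and each bar the median over the 16. Cd74 is highest in both panels, H2-Ob is lowest in CH12F3 and H2-Oa is lowest in spleen cells.

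The summed CPM of the 10 genes was 9118 to 9222 in vector cells at day 1.5, against 7505 to 9209 in ELOF1 cells. At day 3 it was 10172 to 10347 in vector cells, against 7937 to 8260 in ELOF1 cells, and at day 7 it was 8866 to 9534 in vector cells, against 7722 to 7842 in ELOF1 cells. In spleen cells it was 10552 to 16679 in cKO libraries at day 2.5, against 8603 to 15248 in WT libraries, and 17405 to 21345 in cKO at day 3.5, against 13944 to 18361 in WT. The sums overlapped between genotypes at the first day of each system and in spleen cells at day 3.5, and stood apart in CH12F3 at days 3 and 7. Cd74 alone made up 50.0% to 55.9% of the sum in CH12F3 and 37.5% to 52.6% in spleen cells.

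**Figure D2:**
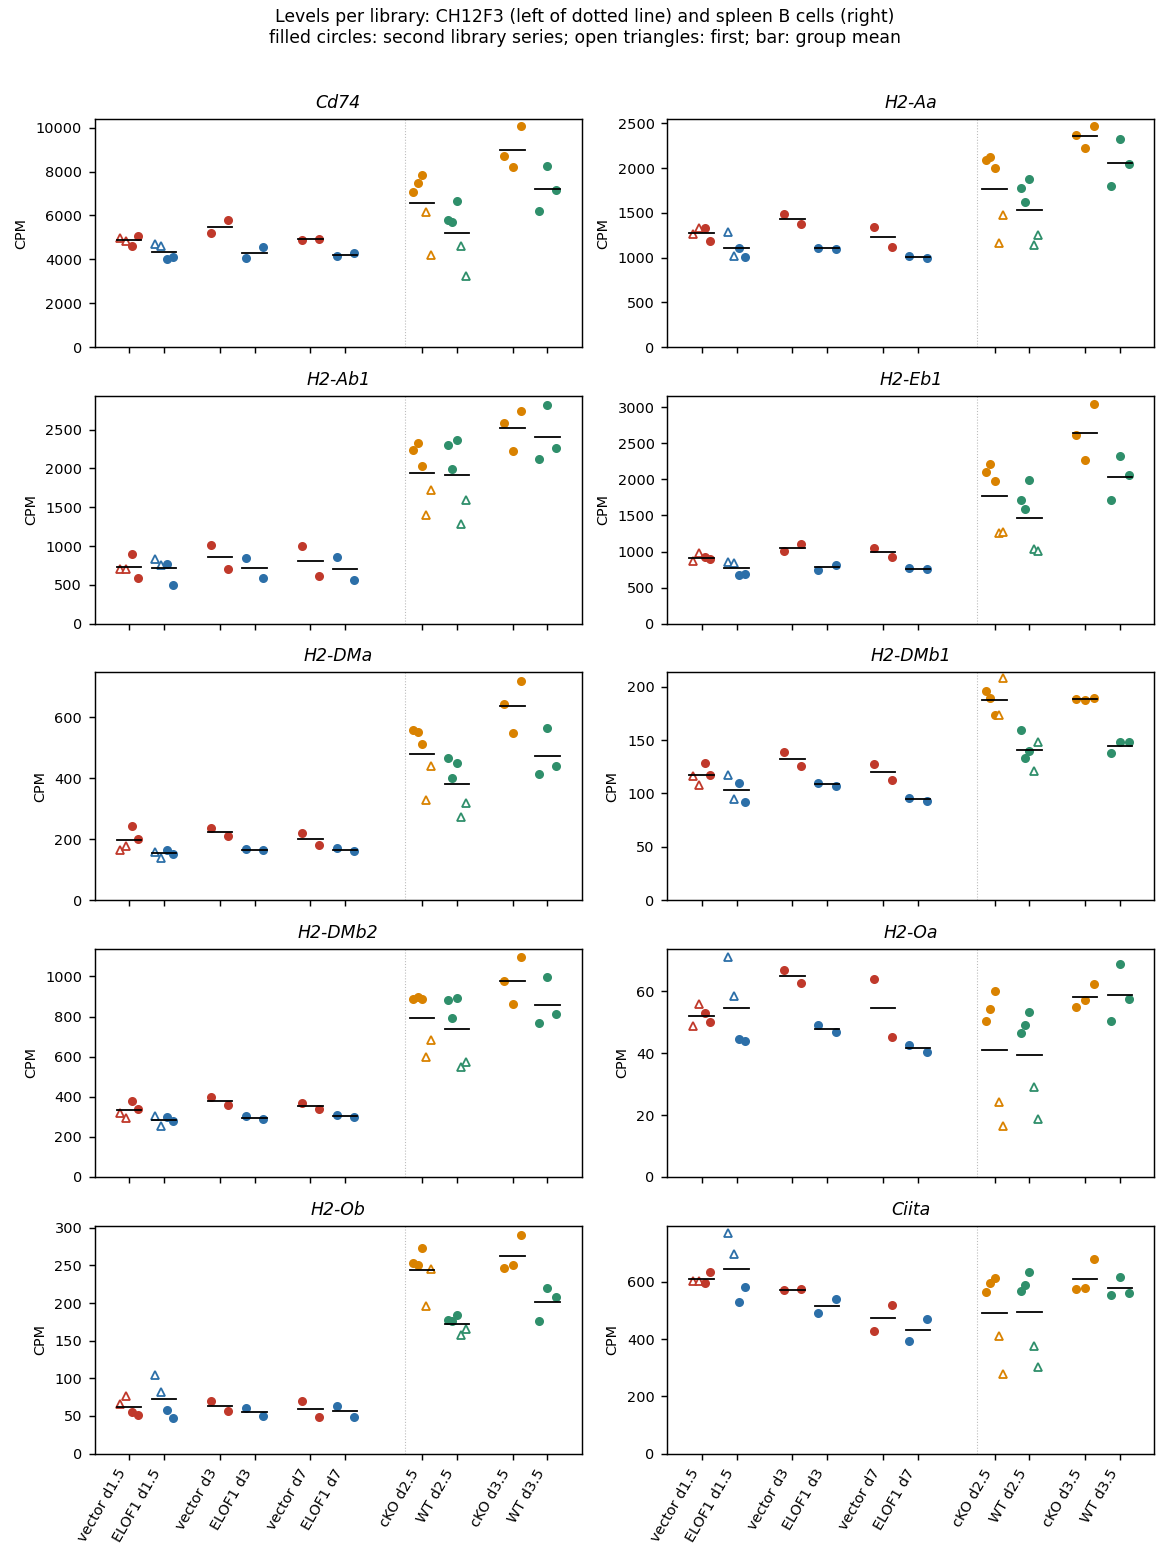
CPM of each of the 10 genes in every library, with CH12F3 groups left of the dotted line and spleen groups right of it; filled circles are the second library series, open triangles the first, and bars group means. H2-Ob and H2-DMb1 in cKO spleen cells lie wholly above WT at both days, while the open triangles of H2-Oa and Ciita in spleen cells lie below the filled circles in both genotypes.

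In CH12F3 cells at day 1.5, most class II genes were somewhat higher in vector than in ELOF1 cells, and none passed the test. No gene of the 10 reached an adjusted p below 0.05 by edgeR's quasi-likelihood test, against 1.15% of the 14201 genes tested. At an unadjusted p below 0.05 the edgeR count was 6 of 10, against 13.4% of all genes. DESeq2 called 2, H2-Eb1 and H2-DMa, a count for which no share of all genes is given here. The median log2 fold change of the 10 was 0.19, against 0.01 for all genes tested, and 7 of the 10 were positive. Same-numbered CH12F3 libraries deviated together. With that pairing as a replicate block, edgeR called H2-DMa, H2-Eb1 and H2-DMb2, at adjusted p of 0.00386, 0.0133 and 0.0173 in that order, all higher in vector cells, against 8.60% of all genes in the same fit. Scaled to the fly spike-in, which moved the median of all genes by -0.09, 6 of the 10 were positive.

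H2-DMa, the alpha chain of the peptide exchanger, had 166.2, 179.7, 242.9 and 202.8 CPM in vector cells at day 1.5, against 157.1, 138.9, 165.9 and 153.5 CPM in ELOF1 cells. The groups did not overlap, though the lowest vector and the highest ELOF1 library nearly met. Its log2 fold change was 0.37 ± 0.09 (SE), a fold of 1.30 (adjusted p = 0.0726, edgeR). H2-Eb1, the beta chain of the I-E molecule, had 873.1, 980.3, 919.1 and 894.7 CPM in vector cells, against 858.9, 841.3, 676.5 and 684.0 CPM in ELOF1 cells. Here too every vector library lay above every ELOF1 library, and replicates 3 and 4 of ELOF1 were the low ones. The log2 fold change was 0.29 ± 0.08 (adjusted p = 0.101). These were the only members whose groups stood apart, 2 of 10, against 1.58% of all genes that stood apart with vector higher.

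Cd74 had 4971, 4832, 4615 and 5054 CPM in vector cells at day 1.5, against 4702, 4597, 4014 and 4113 CPM in ELOF1 cells. The ranges overlapped, and each vector library was above the ELOF1 library of the same number, by 1.05 to 1.23 times (log2 fold change 0.18 ± 0.07, adjusted p = 0.263). H2-Aa, the alpha chain of I-A, differed by 0.23 ± 0.09 (adjusted p = 0.27), and H2-DMb2 by 0.24 ± 0.08 (adjusted p = 0.176). H2-Ab1, the beta chain of I-A, differed by 0.04 ± 0.21 and was the least precise of the 10. The H2-O chains and Ciita lay on the other side of zero. H2-Oa differed by -0.02 ± 0.13, H2-Ob by -0.16 ± 0.15 and Ciita by -0.05 ± 0.10, none past the test. For Ciita the 95% interval of the fold ran from 0.846 to 1.11.

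The values differed between the library series. Within the second series alone all 10 genes were positive at day 1.5, with a median of 0.24, and within the first alone 6 of 10 were positive, with a median of 0.09. Neither alone called a member, in fits that called 0 of 13490 genes in the second series and 52 of 12889 in the first. The first series carried the high ELOF1 libraries of H2-Ob, at 105.0 and 82.1 CPM in replicates 1 and 2 against 58.4 and 47.0 CPM in replicates 3 and 4. Its values for Ciita in ELOF1 cells were likewise 772.2 and 697.2 CPM, against 529.8 and 583.3 CPM in the second series.

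At days 3 and 7 all 10 genes were positive, with vector above ELOF1 in each same-numbered pair, in designs of 2 against 2. At day 3 the log2 fold changes ran from 0.15 in Ciita to 0.43 in H2-Oa, with a median of 0.35 against 0.00 for all genes. None passed by edgeR, where 0.00704% of all genes did, none by DESeq2, and 7 had an unadjusted edgeR p below 0.05, against 4.15% of all genes. At day 7 they ran from 0.11 in H2-Ob to 0.41 in H2-Oa, with a median of 0.27. None passed by edgeR, where 0.0352% of all genes did, none by DESeq2, and 6 had an unadjusted p below 0.05, against 5.70% of all genes. The vector libraries lay wholly above ELOF1 for 8 of 10 genes at day 3, against 16.5% of all genes, and for 7 of 10 at day 7, against 14.8%. On the fly scale, which moved the median of all genes by -0.19 at day 3 and by -0.15 at day 7, 9 of 10 were positive at each day.

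H2-Eb1 at day 3 had 1005 and 1103 CPM in vector cells, against 746 and 820 CPM in ELOF1 cells. At day 7 it had 1045 and 929 CPM in vector cells, against 765 and 757 CPM in ELOF1 cells. The groups did not overlap at either day, and the log2 fold changes were 0.42 ± 0.11 (edgeR adjusted p = 0.897) and 0.39 ± 0.11 (adjusted p = 0.537). H2-Ab1 shows why its error stayed wide: it had 1016 and 702 CPM in vector cells at day 3, against 850 and 585 CPM in ELOF1 cells. Replicate 1 was high and replicate 2 low in both groups, so the groups overlapped while each pair had vector higher, by 1.19 and 1.20 times. The same held at day 7, with 1001 and 621 CPM in vector cells, against 855 and 566 CPM in ELOF1 cells.

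The summed level of general B cell markers was also higher in vector cells. The summed CPM of 10 B cell markers was 1219 to 1547 in vector cells at day 1.5, against 969 to 1131 in ELOF1 cells, and these ranges did not overlap. At day 3 it was 1305 to 1637 in vector cells, against 1085 to 1230 in ELOF1 cells, and at day 7 it was 1258 to 1513, against 1104 to 1243. None of its 9 tested members passed at any of the 3 days. Their median log2 fold change was 0.08 at day 1.5, 0.30 at day 3 and 0.21 at day 7. For the 10 class II genes it was 0.19, 0.35 and 0.27. The sum of 10 dendritic cell markers was 107 to 137 CPM in vector cells at day 1.5, against 87.4 to 104 in ELOF1 cells, and at days 3 and 7 vector cells were again wholly higher. Of its members Cd209a and Clec10a were at 0 in all 16 CH12F3 libraries, and none of the 6 tested passed. The macrophage and monocyte sum overlapped at all 3 days, and T and NK cell markers summed to at most 7.17 CPM. The part of these markers in the class II values was not tested.

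In spleen B cells at day 2.5, H2-Ob and H2-DMb1 rose in cKO cells. H2-Ob encodes the beta chain of the H2-O inhibitor and H2-DMb1 a beta chain of the peptide exchanger. They were the 2 members of 10 that passed, both higher in cKO, against 5.18% of the 13367 genes tested. All 10 log2 fold changes were positive, with a median of 0.25, against 0.00 for all genes tested, and 6 had an unadjusted edgeR p below 0.05, against 18% of all genes. DESeq2 called H2-DMa as well, again with no share of all genes given.

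H2-Ob had 253.7, 250.4, 272.5, 196.0 and 244.9 CPM in cKO cells at day 2.5, against 177.4, 176.3, 183.8, 157.7 and 165.0 CPM in WT cells. Every cKO library was above every WT library, and the lowest of both groups was replicate 4. The log2 fold change was 0.51 ± 0.08, a fold of 1.42 with a 95% interval of 1.27 to 1.59 (adjusted p = 0.00197, edgeR). H2-DMb1 had 195.4, 189.2, 173.6, 173.3 and 207.6 CPM in cKO cells, against 159.5, 132.8, 139.3, 121.1 and 148.5 CPM in WT cells. These groups did not overlap either, and the log2 fold change was 0.43 ± 0.08 (fold 1.35, adjusted p = 0.00518). No other member stood apart, so that 2 of 10 did with cKO higher, against 1.35% of all genes.

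Both calls held in each of the 10 fits that left out 1 library, and within the second library series alone, at 0.53 ± 0.09 for H2-Ob and 0.37 ± 0.07 for H2-DMb1. In the first series alone, 2 libraries against 2, they were 0.46 ± 0.24 and 0.51 ± 0.24 and not called, as were 0% of all genes there. Scaling by the fly spike-in lowered the median of all genes by 0.15 and ended both calls: H2-Ob was then at 0.36 ± 0.18 and H2-DMb1 at 0.28 ± 0.19, in a fit that called 0.696% of all genes. On that scale 6 of the 10 members were positive.

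The other members of the spleen set differed less or less evenly. Cd74 had 7073, 7471, 7832, 6153 and 4210 CPM in cKO cells at day 2.5, against 5797, 5702, 6655, 4611 and 3227 CPM in WT cells. The groups overlapped because replicates 4 and 5, the first library series, were low in both, and the log2 fold change was 0.35 ± 0.12 (adjusted p = 0.121). H2-DMa differed by 0.34 ± 0.11 (adjusted p = 0.0825), H2-Eb1 by 0.29 ± 0.10 (adjusted p = 0.117) and H2-Aa by 0.21 ± 0.09 (adjusted p = 0.197). H2-DMb2, the neighbouring copy of H2-DMb1, differed by 0.12 ± 0.09 (adjusted p = 0.545), and H2-Ab1 by 0.05 ± 0.10 (adjusted p = 0.889). H2-DMb1 and H2-DMb2 are near copies, so how reads were split between them is uncertain.

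Ciita and H2-Oa stood nearly level between genotypes. Ciita had 564.1, 594.8, 615.1, 410.5 and 277.7 CPM in cKO cells at day 2.5, against 567.6, 588.0, 635.6, 377.5 and 301.6 CPM in WT cells. Both groups fell into the same high and low libraries by series, and the 95% interval of the fold was 0.877 to 1.16. H2-Oa, the alpha chain partner of H2-Ob, had 50.25, 54.2, 60.2, 24.2 and 16.5 CPM in cKO cells, against 46.5, 49.2, 53.2, 29.0 and 18.6 CPM in WT cells. Its interval was 0.838 to 1.22.

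At day 3.5 none of the 10 genes passed by edgeR in the fit of all 16 spleen libraries, where 2.07% of all genes did. DESeq2 called 2, H2-DMb1 and H2-Ob, with no share of all genes given for that count. By edgeR 4 members had an unadjusted p below 0.05, against 13.5% of all genes. H2-Ob had 245.9, 250.2 and 290.7 CPM in cKO cells, against 176.4, 220.3 and 208.1 CPM in WT cells. The groups did not overlap, and the log2 fold change was 0.38 ± 0.11 (adjusted p = 0.0816). H2-DMb1 had 188.4, 187.8 and 189.0 CPM in cKO cells, against 137.6, 148.2 and 148.0 CPM in WT cells, and was apart too (0.38 ± 0.10, adjusted p = 0.0746). These 2 of 10 stood apart with cKO higher, against 12.5% of all genes.

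The other members at day 3.5 overlapped between genotypes. Cd74 had 8693, 8213 and 10058 CPM in cKO cells, against 6205, 8271 and 7174 CPM in WT cells, with WT replicate 2 as high as the lower cKO libraries. When only the second library series was fitted, edgeR called 5 of 10 at day 3.5, Cd74, H2-Eb1, H2-DMa, H2-DMb1 and H2-Ob, all higher in cKO, against 9.38% of all genes. Their log2 fold changes there were 0.31 to 0.42, beside 0.32 to 0.42 in the fit of all libraries. The fly scale moved the median of all genes by -0.28 at this day, and 5 of the 10 members were positive on it.

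**Figure D3:**
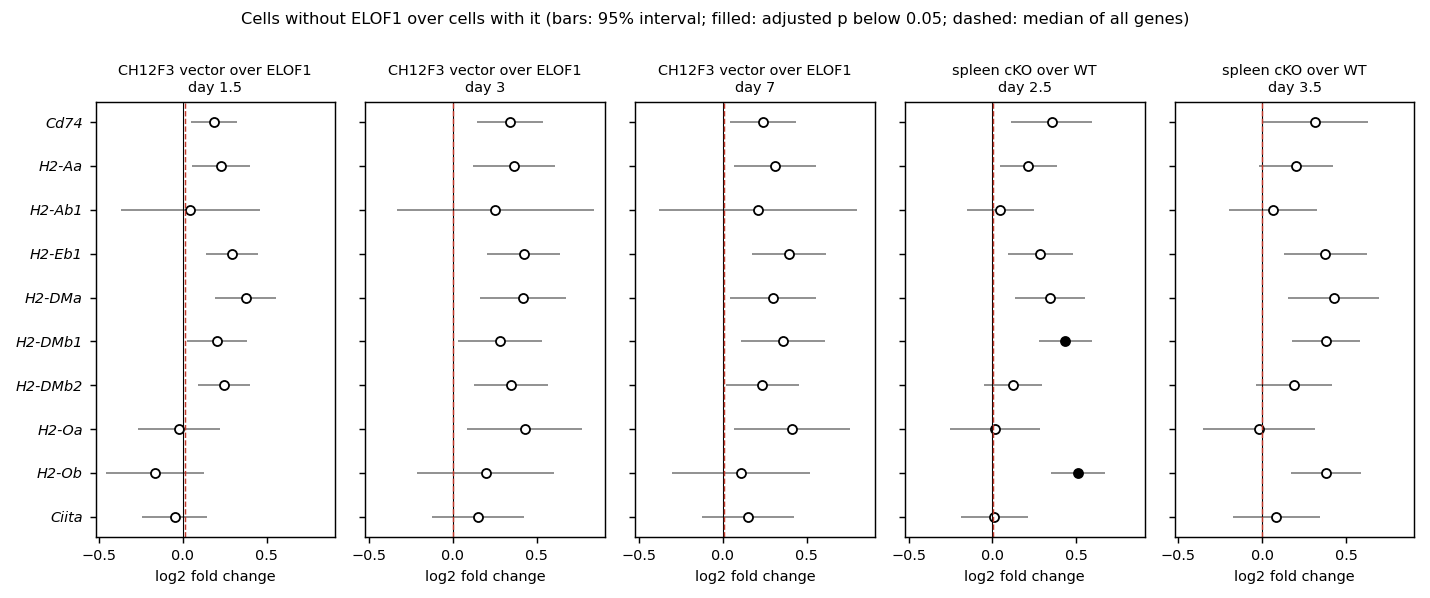
Log2 fold changes of the 10 genes, vector over ELOF1 in CH12F3 at days 1.5, 3 and 7 and cKO over WT in spleen cells at days 2.5 and 3.5. Bars are 95% intervals, filled points passed at an adjusted p below 0.05, and the dashed line is the median of all genes; H2-Ob and H2-DMb1 at day 2.5 in spleen cells are the filled points.

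Markers of other cell types also differed in spleen cells. The sum of 10 dendritic cell markers was 45.5 to 62.1 CPM in cKO cells at day 2.5, against 63.3 to 114 CPM in WT cells, and did not overlap. 3 of its 4 tested members fell, Flt3, Zbtb46 and Batf3, and Clec9a and Clec10a were at 0 in every spleen library. The sum of 10 B cell markers was 4053 to 5660 CPM in cKO cells, against 3814 to 5086 CPM in WT cells. Of its 10 tested members 1 passed higher and 1 lower in cKO. The macrophage and monocyte sum was 18.1 to 29.7 CPM in cKO cells, against 10.6 to 30.0 CPM in WT cells, where Cd68, also a lysosomal protein, rose by 0.74 ± 0.13 (adjusted p = 0.00361). At day 3.5 the dendritic sum was 64.2 to 74.0 CPM in cKO cells, against 91.9 to 109 CPM in WT cells, and the macrophage and monocyte sum was 24.6 to 34.0 CPM in cKO, against 15.9 to 21.9 CPM in WT. T and NK cell markers summed to at most 5.62 CPM in cKO and 5.41 CPM in WT cells at day 2.5. The part of these markers in the class II values was not tested.

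The genes around the class II pathway differed between genotypes in a few members. The lists were chosen with results of these data known. Ifi30, the endosomal thiol reductase that unfolds antigens, rose in vector cells at day 1.5 by 0.63 ± 0.09 (adjusted p = 0.00467). It rose in cKO spleen cells by 0.75 ± 0.12 at day 2.5 (adjusted p = 0.0015) and by 0.88 ± 0.15 at day 3.5 (adjusted p = 0.00605), all by edgeR. It was the single member of 14 tested peptide loading and turnover genes to pass in CH12F3 at day 1.5. Of 17 tested in spleen cells at day 2.5, Lgmn, an asparagine-specific endosomal protease, also rose, by 0.44 ± 0.09, and Cd44, a surface partner of the invariant chain, fell by 0.49 ± 0.09. At day 3.5 Ifi30 rose and Cd44 fell, by 0.56 ± 0.11, and no other member of that list passed.

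Among 13 regulators of Ciita, Stat6, Irf4 and Il4ra rose in vector cells at day 1.5. Il4ra and Stat6 are the receptor chain and the transcription factor of IL4 signalling. Their log2 fold changes were 0.48 ± 0.08 for Stat6, 0.50 ± 0.10 for Irf4 and 0.49 ± 0.10 for Il4ra. Prdm1, the plasma cell regulator that silences Ciita, fell by 2.87 ± 0.62 (adjusted p = 0.0434, edgeR). In cKO spleen cells at day 2.5 Spi1, a myeloid and B cell factor, rose by 0.40 ± 0.08 and Irf4 fell by 0.47 ± 0.10. At day 3.5 Irf4 fell by 0.55 ± 0.13. Irf4 and Prdm1 are also plasma cell markers, and no other marker of that list passed in a genotype comparison of either system. None of the 7 promoter factors, the RFX and NF-Y subunits and Creb1, passed in any of the 5 genotype comparisons by edgeR. Of other genes of the class II locus, Brd2, a chromatin reader outside antigen presentation, rose by 0.37 ± 0.07 in cKO spleen cells at day 2.5, the 1 of 3 tested that passed. At days 3 and 7 in CH12F3 no gene of these 4 lists passed.

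Over time no member passed in any of 6 comparisons by edgeR, and none by DESeq2. In CH12F3 the shares of all genes that passed were 0.00704% for ELOF1 at day 3 over day 1.5, 0.0493% for ELOF1 at day 7, 0.00704% for vector at day 3 and 0.169% for vector at day 7. In spleen cells day 3.5 over day 2.5 gave 3.40% in cKO and 5.45% in WT. The numbers of members with an unadjusted edgeR p below 0.05 were 0, 1, 3 and 0 in the CH12F3 comparisons in the same order. The shares of all genes there were 4.21%, 7.6%, 6.03% and 8.58%. In spleen cells the numbers were 1 in cKO, against 15.8% of all genes, and 0 in WT, against 18.3%.

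At day 7 in CH12F3 Ciita was the member furthest from its day 1.5 level in both genotypes. In ELOF1 cells it had 772.2, 697.2, 529.8 and 583.3 CPM at day 1.5, 490.2 and 538.9 CPM at day 3, and 393.0 and 471.5 CPM at day 7. The day 7 libraries lay below all 4 of day 1.5, with a log2 fold change of -0.47 ± 0.13 (unadjusted p = 0.00323, adjusted p = 0.323, edgeR). In vector cells it had 604.3, 604.7, 597.8 and 633.0 CPM at day 1.5, 572.9 and 573.6 CPM at day 3, and 429.1 and 519.0 CPM at day 7. The later libraries again lay below all of day 1.5, though the fitted log2 fold change, which carries the library series term, was -0.01 ± 0.13 at day 3 (adjusted p = 1) and -0.27 ± 0.13 at day 7 (adjusted p = 0.598). In ELOF1 cells Ciita and H2-Oa were the members wholly lower at day 7, 2 of 10 against 11.9% of all genes. In vector cells Ciita alone was, 1 of 10 against 9.81%.

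In vector cells at day 3, 4 of 10 members lay wholly above day 1.5, Cd74, H2-Aa, H2-Eb1 and H2-Oa, against 7.75% of all genes. H2-Oa had 48.6, 56.1, 53.0 and 50.0 CPM at day 1.5 and 66.8 and 62.8 CPM at day 3, and at day 7 it had 63.9 and 45.3 CPM. Its day 3 libraries were the high ones, and the log2 fold change of day 3 over day 1.5 was 0.44 ± 0.16 (adjusted p = 0.651). In cKO spleen cells 3 of 10 members lay wholly higher at day 3.5 than at day 2.5, Cd74, H2-Aa and H2-Eb1, against 9.14% of all genes. The largest difference there was 0.31 ± 0.12 in H2-Eb1 (adjusted p = 0.19). Other markers moved with time in both genotypes. In cKO cells the summed CPM of 8 plasma cell markers was 1060 to 1290 at day 2.5 and 1682 to 2103 at day 3.5, where 3 of 7 tested rose. The dendritic sum was 45.5 to 62.1 at day 2.5 and 64.2 to 74.0 at day 3.5 in cKO cells, where 1 of 4 tested rose. Of 10 B cell markers 1 fell, Cr2, by 1.09 ± 0.23 (adjusted p = 0.0156, edgeR). The part of these markers was not tested. In WT cells no member stood apart, while the plasma cell sum was 1096 to 1593 CPM at day 2.5 and 1832 to 2519 CPM at day 3.5. There 2 of 7 tested plasma cell markers rose, as did 1 of 4 dendritic and 1 of 4 macrophage and monocyte markers. Of 10 B cell markers 1 fell in WT cells. On the fly scale the median of all genes moved by -0.22 in cKO cells, and 2 of the 10 members were positive there.

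Among the surrounding genes, Zbtb32, a repressor of Ciita, fell at day 3.5 in both genotypes, by 0.58 ± 0.10 in cKO and by 0.71 ± 0.10 in WT spleen cells. Of the 17 peptide loading and turnover genes 4 rose in cKO and 5 in WT cells, among them Cd44, Ctsd and Lamp1 in both. Ctsd, a lysosomal aspartic protease, rose by 0.63 ± 0.16 in cKO and by 0.71 ± 0.16 in WT. Creb1 was the 1 of 7 promoter factors to pass, in WT cells, where it fell by 0.40 ± 0.10. In CH12F3 Irf8, a factor of B and dendritic cells, fell by 0.89 ± 0.16 in vector cells at day 7 (adjusted p = 0.0461, edgeR), and no other gene of these 4 lists passed at a later day.

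The genotype effects were compared with each other directly. None of the 10 genes had a genotype effect that differed between days in either system, where 0% of all genes passed in each of the 3 tests. None had an unadjusted edgeR p below 0.05. The shares of all genes at that level were 1.22% for CH12F3 day 3, 1.92% for CH12F3 day 7 and 2.08% for spleen cells. Between CH12F3 at day 1.5 and spleen cells at day 2.5 no member passed by edgeR, where 0.454% of all genes did, and none by DESeq2. An unadjusted edgeR p below 0.05 was reached by 1 of the 10 members, against 7.46% of all genes. That member was H2-Ob, at -0.16 ± 0.15 in CH12F3 and 0.51 ± 0.08 in spleen cells, and in the fit of both systems the difference was -0.72 ± 0.23 with a 95% interval of -1.16 to -0.27 (adjusted p = 0.217). With a replicate block H2-Ob passed at -0.67 ± 0.12 (adjusted p = 0.00151, edgeR). That block also pairs spleen libraries by number, although the numbers pair samples in CH12F3 only. No share of all genes is given for the blocked fit, and its call does not replace the unblocked result. H2-DMb1 differed by -0.24 ± 0.12 (adjusted p = 0.734), H2-Oa by -0.15 ± 0.35 and Ciita by -0.10 ± 0.24 (adjusted p = 1 each). For Cd74, H2-Aa, H2-Ab1, H2-Eb1, H2-DMa and H2-DMb2 the difference lay between -0.18 and 0.11. The 2 systems differ in stimulus and day as well as in cell source.

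Most of the 10 genes also differed between the cell line and spleen cells. Of the 10 genes, 9 passed in ELOF1 CH12F3 cells at day 1.5 over WT spleen cells at day 2.5, 7 lower and 2 higher in CH12F3, against 61.8% of 15639 genes that passed in either direction. In vector CH12F3 over cKO spleen cells 8 passed, all lower in CH12F3, against 62.5% of all genes that passed in either direction. Most genes thus passed in each comparison. Those that passed lower in CH12F3 were 5146 of the 15639 genes in ELOF1 over WT and 5214 in vector over cKO. The median log2 fold change of the members was -0.64 in ELOF1 over WT and -0.77 in vector over cKO, against -0.06 for all genes in both. Markers of cell types moved between the systems too. Of 10 B cell markers 9 were lower and 1 higher in ELOF1 over WT cells (median -2.24), and 8 were lower and 1 higher in vector over cKO cells (median -2.15). Of 6 tested dendritic cell markers 4 were higher and 2 lower in ELOF1 over WT cells (median 1.08), and 5 were higher in vector over cKO cells (median 1.69). Of 5 tested macrophage and monocyte markers 3 were higher and 2 lower in both comparisons. Their part in the class II values was not tested.

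H2-Ab1 had 502 to 836 CPM in ELOF1 CH12F3 cells, against 1289 to 2366 CPM in WT spleen cells, a log2 fold change of -1.35 ± 0.20 (adjusted p = 1.24e-06, edgeR). H2-DMb2 differed by -1.31 ± 0.11, H2-Ob by -1.28 ± 0.17 and H2-DMa by -1.24 ± 0.12 in the same comparison. H2-Eb1 differed by -0.85 ± 0.16, H2-DMb1 by -0.44 ± 0.09 and H2-Aa by -0.41 ± 0.13. Cd74 differed least, by -0.19 ± 0.15 (adjusted p = 0.254). In vector over cKO cells H2-Ob differed most, with 51.3 to 76.0 CPM in vector CH12F3 cells, against 196 to 272 CPM in cKO spleen cells, a log2 fold change of -2.0 ± 0.17 (adjusted p = 5.9e-11). These ranges were far apart. Cd74 passed in that comparison, at -0.38 ± 0.14 (adjusted p = 0.0254), and lost the call without vector replicate 3 (-0.30) or 4 (-0.35) or cKO replicate 3 (-0.33) or 4 (-0.35). H2-Aa lost it without CH12F3 replicate 4, at -0.31 in ELOF1 over WT and -0.32 in vector over cKO.

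H2-Oa and Ciita went the other way in the fit of all libraries. H2-Oa was at 0.64 ± 0.25 (adjusted p = 0.0294) and Ciita at 0.49 ± 0.17 (adjusted p = 0.0157) in ELOF1 over WT cells. Both rested on the first library series, where they stood at 1.53 ± 0.28 and 1.20 ± 0.25. In the second series alone they stood at -0.16 ± 0.13 and -0.10 ± 0.10 and did not pass. H2-Oa lost the call without ELOF1 replicate 1 (0.41) or 2 (0.53) or WT replicate 4 (0.61) or 5 (0.45). Ciita lost it without ELOF1 replicate 1 (0.34) or 2 (0.40) or WT replicate 5 (0.35). In vector over cKO cells they were at 0.49 ± 0.25 (adjusted p = 0.0867) and 0.38 ± 0.17 (adjusted p = 0.0512) and did not pass.

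Scaling to the fly spike-in, which was added per cell number, moved the median of all genes up by 0.94 in ELOF1 over WT and by 1.0 in vector over cKO. On that scale H2-Aa and H2-DMb1 were higher in CH12F3, at 0.51 and 0.49 in ELOF1 over WT, and H2-Eb1 stood at 0.08. Relative to the shifted median, these 3 genes were still below it. Cd74 was higher in CH12F3 on the fly scale, at 0.76 in ELOF1 over WT and 0.64 in vector over cKO. It too was below the median of all genes on that scale, 0.88 in ELOF1 over WT and 0.93 in vector over cKO. The values of H2-Ab1, H2-DMa, H2-DMb2 and H2-Ob were below 0 on both scales and in both comparisons, though on the fly scale H2-DMa passed in neither, with -0.32 in ELOF1 over WT. Reads were aligned to mm10, per the submitters' processing notes, and the labels give the MHC haplotype of neither the line nor the mice.

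H2-Ea-ps was the class II locus gene that separated the systems most. The annotation calls this I-E alpha chain gene a polymorphic pseudogene, since only some mouse haplotypes express it. The gene as counted lies at chr17:34342933-34344643 on the minus strand. It had 5931 to 12358 counts in the 16 CH12F3 libraries, against 0 to 7 counts in the 16 spleen libraries. Every CH12F3 library was high and every spleen library near 0, and the log2 fold change was 11.35 ± 0.33 in ELOF1 over WT. I-E pairs this alpha chain with the beta chain H2-Eb1, which had 6945 to 15815 counts in CH12F3 and 10055 to 32532 counts in spleen libraries. Between genotypes H2-Ea-ps overlapped in CH12F3 at all 3 days.

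**Figure D4:**
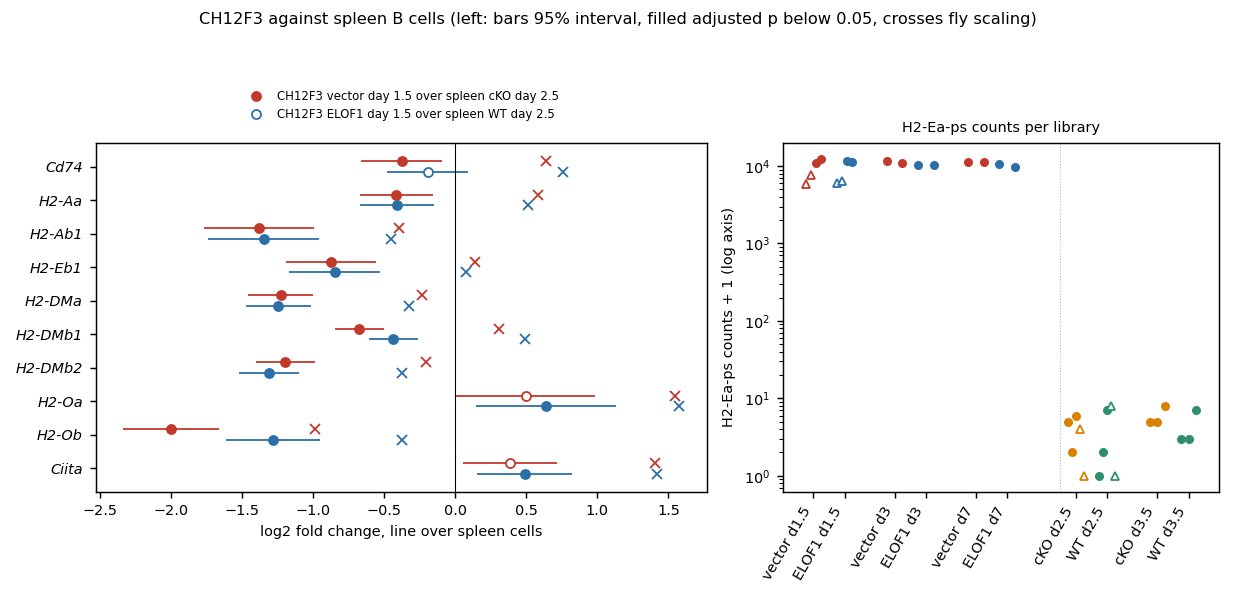
Left, log2 fold changes of the 10 genes in CH12F3 over spleen cells, vector over cKO above ELOF1 over WT for each gene, with 95% intervals; filled points passed at an adjusted p below 0.05 and crosses give the values scaled to the fly spike-in. Right, counts of H2-Ea-ps plus 1 per library on a log axis, with open triangles for the first library series; all CH12F3 libraries lie at 5931 or above and no spleen library is above 8.

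Before scaling to the fly spike-in, most surrounding factors were also lower in the line. Of all 15639 genes tested, 5146 passed lower and 4523 higher in ELOF1 over WT cells. In vector over cKO cells 5214 passed lower and 4568 higher. The lists below were not counted on the fly scale. In ELOF1 over WT cells 9 of 13 regulators of Ciita fell and 1 rose, and in vector over cKO cells 9 fell and 3 rose. Il4ra fell by 4.53 ± 0.11, Irf8 fell by 2.90 ± 0.12 and Irf1, an interferon-induced factor, fell by 1.54 ± 0.10 in ELOF1 over WT cells. These 3 differences are larger than the 0.94 by which the fly scale moved the median of all genes. Of 7 promoter factors 5 fell and 1 rose in ELOF1 over WT cells, and 4 fell and 1 rose in vector over cKO cells. The one that rose was Rfxap, a subunit of the RFX complex, by 2.68 ± 0.22 in ELOF1 over WT and by 2.66 ± 0.21 in vector over cKO. Of 17 peptide loading and turnover genes 10 fell and 3 rose in ELOF1 over WT cells, and 10 fell and 4 rose in vector over cKO cells.

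Ratios between members of 1 complex were read within each library, where scaling cancels. They are ratios of CPM without a length correction, so only their differences between libraries carry meaning. H2-Ab1 over H2-Aa was 0.50 to 0.844 in CH12F3 libraries, against 0.996 to 1.30 in spleen libraries, with no overlap. H2-Oa over H2-Ob was 0.671 to 1.10 in CH12F3, against 0.0674 to 0.312 in spleen libraries. H2-DMb1 over H2-DMb2 was 0.311 to 0.387 in CH12F3, against 0.148 to 0.303 in spleen libraries. All 3 ratios separated the systems completely.

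Between genotypes some of these ratios stood apart and others overlapped. In CH12F3 H2-Oa over H2-Ob was 0.735 to 0.974 in vector cells at day 1.5, against 0.676 to 0.934 in ELOF1 cells, with overlap. It was 0.963 to 1.10 in vector cells at day 3, against 0.816 to 0.938 in ELOF1 cells, and 0.913 to 0.922 at day 7, against 0.671 to 0.836, without overlap in 2 libraries a group. H2-DMb1 over H2-DMb2 in CH12F3 took no single direction, lower in vector cells at day 3, at 0.349 to 0.350, against 0.363 to 0.370 in ELOF1 cells, and higher at day 7, at 0.333 to 0.347, against 0.311 to 0.313.

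In spleen cells H2-Ab1 over H2-Aa at day 2.5 was 1.11 ± 0.08 in cKO and 1.24 ± 0.07 in WT cells (SD, n = 5 each), with 1 WT library inside the cKO range. At day 3.5 it was 1.06 ± 0.06 in cKO and 1.17 ± 0.05 in WT cells (SD, n = 3 each), without overlap. H2-Oa over H2-Ob at day 3.5 was 0.222 ± 0.007 in cKO and 0.291 ± 0.018 in WT cells (SD, n = 3 each), also without overlap. At day 2.5 it was 0.165 ± 0.067 in cKO and 0.226 ± 0.075 in WT cells, and the ranges overlapped because the first library series was low in both. No test was run on these ratios.

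**Figure D5:**
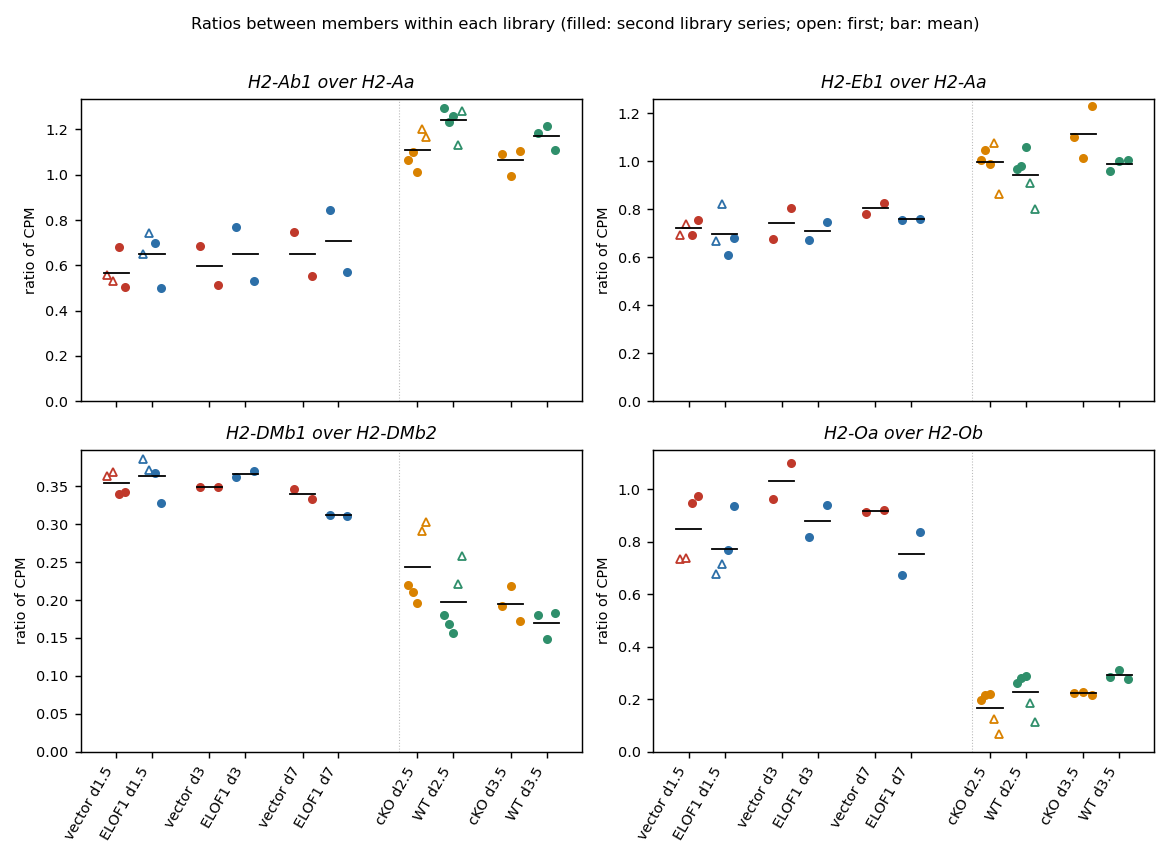
Ratios of CPM between members of the same complex in every library, CH12F3 groups left of the dotted line and spleen groups right of it, with filled circles for the second library series, open triangles for the first and bars for group means. H2-Oa over H2-Ob is 0.671 to 1.10 in CH12F3 and 0.0674 to 0.312 in spleen cells, and H2-Ab1 over H2-Aa is at most 0.844 in all CH12F3 libraries but at or above 0.996 in all spleen libraries.

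The genes whose levels ran closest to the members across libraries differed between the systems. Likeness was measured over the 16 libraries of a system as Pearson's r of log2 CPM after removal of the library series term, as a description without a test, since those libraries share groups and days. In CH12F3 the genes most like the mean of Cd74, H2-Aa, H2-Ab1 and H2-Eb1 were Eme2 (r = 0.93), Rpl34 (r = 0.91) and Ctss (r = 0.90), the last encoding cathepsin S, the protease that trims the invariant chain. In spleen cells they were Slc2a6 (r = 0.93), Map1lc3b (r = 0.92) and Ctsh (r = 0.92). The genes most like Ciita were Pxk (r = 0.91) and Ccdc120 (r = 0.91) in CH12F3, and Sufu (r = 0.92) and Wdfy4 (r = 0.92) in spleen cells. Among all 9349 genes compared in CH12F3, 0.0321% had an r above 0.9 with the class II mean, and 0.0886% of 9025 did in spleen cells.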

How the data were processed

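RNA from 32 samples was sequenced after rRNA depletion in strand-specific libraries, with fly S2 RNA added per number of cells, per the labels' protocols. The deposited values are raw counts per gene, in 1 table for CH12F3 and 1 for spleen B cells, each with mouse and fly genes. The submitters' processing notes name Bowtie2, featureCounts, mm10 and dm6. Versions, the strand setting and the handling of multi-mapped reads are not given there. 884 mouse genes without a symbol held 0.355% to 0.470% of counts.

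Counts were tested with edgeR 4.0.16 (quasi-likelihood, TMM scaling, filterByExpr with a minimum count of 10) in R 4.3.3, in 1 fit per system with group and library series as terms, and in 1 fit of all 32 libraries for comparisons between systems. p-values were adjusted by Benjamini-Hochberg over all genes tested in each of 17 comparisons, with a threshold of 0.05. DESeq2 1.42.0 was an alternative. CPM values use TMM scaling over all libraries. SE is the coefficient divided by the root of F, and 95% intervals are 1.96 SE to each side. Mouse counts of 7112130 to 16359477 per library limit precision; fly counts were 2.15% to 8.39% of them.

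The alternatives were RLE scaling, fly scaling, no filter, no library series term, the second library series alone, a replicate block, only the compared groups, DESeq2 and leaving out each library. The first library series alone was added after seeing the data. Numbers were taken to pair samples where every same-numbered pair deviated together, at a correlation above 0.1. All 4 CH12F3 pairs at day 1.5 did (r = 0.670 to 0.718, and 0.475 to 0.537 after the library series term). In spleen cells not every pair did: at day 2.5 r was 0.158, -0.223 and -0.142 after that term for replicates 1 to 3 but 0.811 for replicates 4 and 5, and no pair at day 3.5 passed 0.1. All 10 members are named, and of the other lists up to 4 genes per comparison by smallest adjusted p. The members and lists were chosen with earlier results of these data known. The fits were tested on simulated data.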

Additional observations from a re-analysis of the deposited data

Results flagged for a closer look

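In the groups of 4 or 5 libraries, CH12F3 at day 1.5 and spleen at day 2.5, none of the 10 class II genes had a sample far from the rest of its group; groups of 2 or 3 were not checked. None had a genotype effect that differed between systems or days by the edgeR test. 7 genes of the surrounding lists had genotype effects at CH12F3 day 1.5 (vector over ELOF1) and spleen day 2.5 (cKO over WT) that differed from each other, as log2 differences in edgeR's fit of all libraries.

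Prdm1, a plasma cell regulator, was at -2.87 ± 0.62 in CH12F3 and 0.29 ± 0.19 in spleen cells, a difference of -3.15 (adjusted p = 0.0094). Lgmn, an endosomal protease, was at -0.19 ± 0.12 in CH12F3 and 0.44 ± 0.09 in spleen cells, a difference of -0.65 (adjusted p = 0.0399). Cd44, a surface partner of the invariant chain, was at 0.18 ± 0.11 in CH12F3 and -0.49 ± 0.09 in spleen cells, a difference of 0.66 (adjusted p = 0.0453). Fcer2a, the B cell marker CD23, was at 1.74 ± 0.40 in CH12F3 and -0.04 ± 0.09 in spleen cells, a difference of 1.77 (adjusted p = 0.0281). Of dendritic cell markers, Flt3 was at 1.50 ± 0.35 in CH12F3 and -1.22 ± 0.30 in spleen cells, a difference of 2.61 (adjusted p = 0.0137). Zbtb46 was at 0.26 ± 0.14 in CH12F3 and -0.94 ± 0.15 in spleen cells, a difference of 1.21 (adjusted p = 0.0074). Batf3 was at 0.62 ± 0.18 in CH12F3 and -1.22 ± 0.30 in spleen cells, a difference of 1.74 (adjusted p = 0.0394).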

How the results depend on the processing

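Of 281 alternatives to the 17 counts of members that passed, 266 left the count within 1.5 times, 3 lowered it and 12 raised it. For DESeq2, no filter, only the compared groups and the replicate block in spleen cells or in the fit of both systems, no share of all genes is given beside these counts. For CH12F3 at day 1.5 the count of 0 became 1 with no filter, 3 with the replicate block and 2 by DESeq2. For spleen cells at day 2.5 the count of 2 became 0 under fly scaling, 0 in the first library series alone and 5 with the replicate block. For spleen cells at day 3.5 the count of 0 became 5 in the second series alone, 3 with the replicate block, 2 with only the compared groups and 2 by DESeq2. It became 1 from 0 for ELOF1 day 7 over day 1.5 with no filter (Ciita, adjusted p = 0.04). It became 1 for cKO day 3.5 over day 2.5 in the second series alone (H2-Eb1, edgeR adjusted p = 0.0498), where 1678 of 12851 genes passed. For the difference between CH12F3 and spleen genotype effects it became 1, H2-Ob, with no filter (adjusted p = 0.00641) and with the replicate block (-0.67 ± 0.12, adjusted p = 0.00151). The replicate block rests on the pairing of CH12F3 numbers; in spleen cells replicates 4 and 5 at day 2.5 deviated together (r = 0.811) but the other pairs at day 2.5 (0.158, -0.223 and -0.142, after the library series term; 0.340 to 0.480 before it) and day 3.5 (0.081, -0.303 and -0.138) did not all do so, and the numbers were not taken as pairs. The 5 spleen genes called with the block at day 2.5 were Cd74 (adjusted p = 0.00495), H2-Eb1 (0.050), H2-DMa (0.0241), H2-DMb1 (0.000259) and H2-Ob (0.000144). The block changed no other count. Leaving out 1 library gave counts of 2 to 3 for spleen day 2.5, 7 to 9 for ELOF1 over WT and 6 to 9 for vector over cKO, and 0 in the other 14 comparisons. The count for vector over cKO was 5 under fly scaling.

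Of 327 alternatives to the 19 member calls, 282 kept direction and call, 34 lost the call and 11 changed sign, all between systems. Under fly scaling H2-Aa stood at 0.51, H2-Eb1 at 0.076 and H2-DMb1 at 0.49 in ELOF1 over WT, and H2-Aa at 0.58, H2-Eb1 at 0.14, H2-DMb1 at 0.31 and Cd74 at 0.64 in vector over cKO. In the first series alone H2-Aa stood at 0.033 in ELOF1 over WT and 0.045 in vector over cKO. In the second alone H2-Oa stood at -0.16 and Ciita at -0.10 in ELOF1 over WT. The cause was not tested. Groups of 2 libraries at days 3 and 7 limit what could pass there, and the alternatives for H2-DMb1 and H2-DMb2 do not settle how reads were split between them.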
